A study of Homo sapiens with 2 samples.

Results

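The heat shock proteins and chaperones described here are 88 of the 19866 protein-coding genes that RefSeq places on human chromosomes 1 to 22, X and Y. They were chosen by symbol, with earlier results of these data known. The symbols cover the HSP70 and HSP110 genes (HSPA and HSPH1), the HSP90 genes and the small heat shock genes (HSPB). They also cover the mitochondrial chaperonin pair HSPD1 and HSPE1 and the cytosolic chaperonin subunits (CCT genes and TCP1). The J-domain genes of classes DNAJA, DNAJB and DNAJC and the genes BAG1 to BAG6 complete the group. The cells were H1299, a line derived from human non-small cell lung cancer. The study has 2 libraries, 1 of chromatin pulled down for H3K18la, the lactylated form of lysine 18 of histone H3, and 1 control, and the cells of neither carry a labelled treatment or genetic change. The sample labels call the control input, while the study's design text speaks of IgG, and only the list of 28695 broad peaks of the anti-H3K18la library was analysed. With 1 library there were no replicates, so no test or p-value is given, and the intervals below cover counting error only.

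Chaperones bind proteins that are unfolded or still being made and hold or fold them at the cost of ATP. HSP70 takes its clients from J-domain proteins and releases them with the help of HSP110 and BAG proteins, HSP90 acts late on kinases and receptors, and the ring-shaped chaperonins enclose their clients. A subset of these genes is switched on in heat or other protein stress by heat shock factors, which bind repeats of the triplet GAA in alternating orientation; others are expressed in most cells at all times, or mainly in testis, muscle or nerve.

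Since the heat shock element is the sequence by which this gene group is best known, the starts of the members were searched for it. The promoter windows in RefSeq (GRCh38.p14) run from 250 bases before to 50 bases after a transcription start and were given for 79 members, with 102 starts. An element of 3 alternating units (GAA, any 2 bases, TTC, any 2 bases, GAA, or its complement, searched on both strands) lay at 7 of these starts (6.86%), against 0.406% of 22183 protein-coding starts. The 9 sites found at the 7 genes are shown in 30 bases each, on the strand of the gene and 5′ to 3′, with the matching bases in capitals. Positions in brackets count from the start site of the window, which can lie inside the gene entry, and coordinates are GRCh38. Counted from the outer end of the entry, both HSP90AB1 sites lie inside the gene, at 1584 and 1637 bp. The sites of HSPD1 (189 bp), HSPA8 (96 and 271 bp) and HSP90AA1 (52617 bp) also lie inside.
HSPA6 (from -74, chr1:161524458-161524487, + strand): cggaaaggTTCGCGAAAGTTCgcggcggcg
HSPD1 (from -245, chr2:197500061-197500090, - strand): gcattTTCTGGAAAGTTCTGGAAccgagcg
HSP90AB1 (from -165, chr6:44247770-44247799, + strand): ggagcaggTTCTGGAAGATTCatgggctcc
HSP90AB1 (from -112, chr6:44247823-44247852, + strand): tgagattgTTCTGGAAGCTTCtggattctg
DNAJB6 (from -131, chr7:157336865-157336894, + strand): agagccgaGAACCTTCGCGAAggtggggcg
DNAJA1 (from 3, chr9:33025268-33025297, + strand): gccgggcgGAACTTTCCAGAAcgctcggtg
HSPA8 (from -230, chr11:123062345-123062374, - strand): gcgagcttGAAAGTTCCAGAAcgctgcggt
HSPA8 (from -55, chr11:123062170-123062199, - strand): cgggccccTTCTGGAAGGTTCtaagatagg
HSP90AA1 (from -88, chr14:102087111-102087140, - strand): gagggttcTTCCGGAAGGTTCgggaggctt

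All 7 of these starts had an H3K18la peak within 1000 bp, and 8 of the 9 sites lay inside one. Over all genes, 41 of the 90 starts with such an element were marked (45.6%), against 58.9% of all starts and 84.3% of member starts. The site outside a peak is that of HSPD1, which holds 4 units, an arrangement found at 5 of all 22183 starts. The peaks over the other sites ranged from 4.98-fold at HSPA6 to 9.78-fold at DNAJA1, where fold is the authors' ratio of the anti-H3K18la signal to the peak caller's local background, averaged over the length of the peak. Pairs of units, a looser match, occurred at 28 of the 102 member starts (27.5%) and at 11.6% of all starts. A match of letters does not show that a factor binds there, and its absence from a window says nothing about the factor.

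Across the whole group, 70 of 88 members (79.5%, exact 95% interval 69.6 to 87.4) had a peak within 1000 bp of an end of the gene, against 59.1% of all protein-coding genes. Counting the gene body and 1000 bp on either side, 74 members (84.1%) had a peak, against 66.7%. Where the start site was known, 66 of 79 members (83.5%, exact 95% interval 73.5 to 90.9) had a peak within 1000 bp of it, against 62.1% of 15843 genes. Of 65 members with a known strand and an end peak, the highest end peak lay at the start in 61. It lay at the finish in 3 (HSPB7, HSPB3 and DNAJC4) and across both in 1 (HSPB1). Both ends met a peak in 6 of the 88 members. Neither the split between start and finish nor the count of peaks at both ends was made over all genes. Neither is therefore shown to be particular to chaperones. At the ends, 67 distinct peaks stood for the 70 marked members, since neighbouring members share them.

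The folds of the marked members overlapped those of all marked genes. The median fold at an end was 6.14 over the 70 marked members (quartiles 4.90 and 7.09, range 2.94 to 11.6) and 5.66 over 11744 marked protein-coding genes (quartiles 4.42 and 7.19). A fold of 8 or more, a limit set after the values were seen, was reached by 10 of 70 (14.3%), against 17.2%. Peak width had a median of 1532.5 bp in members and 1421 bp in all marked genes. The plot of each member's fold shows both the spread within families and the genes without a peak.

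**Figure D1:**
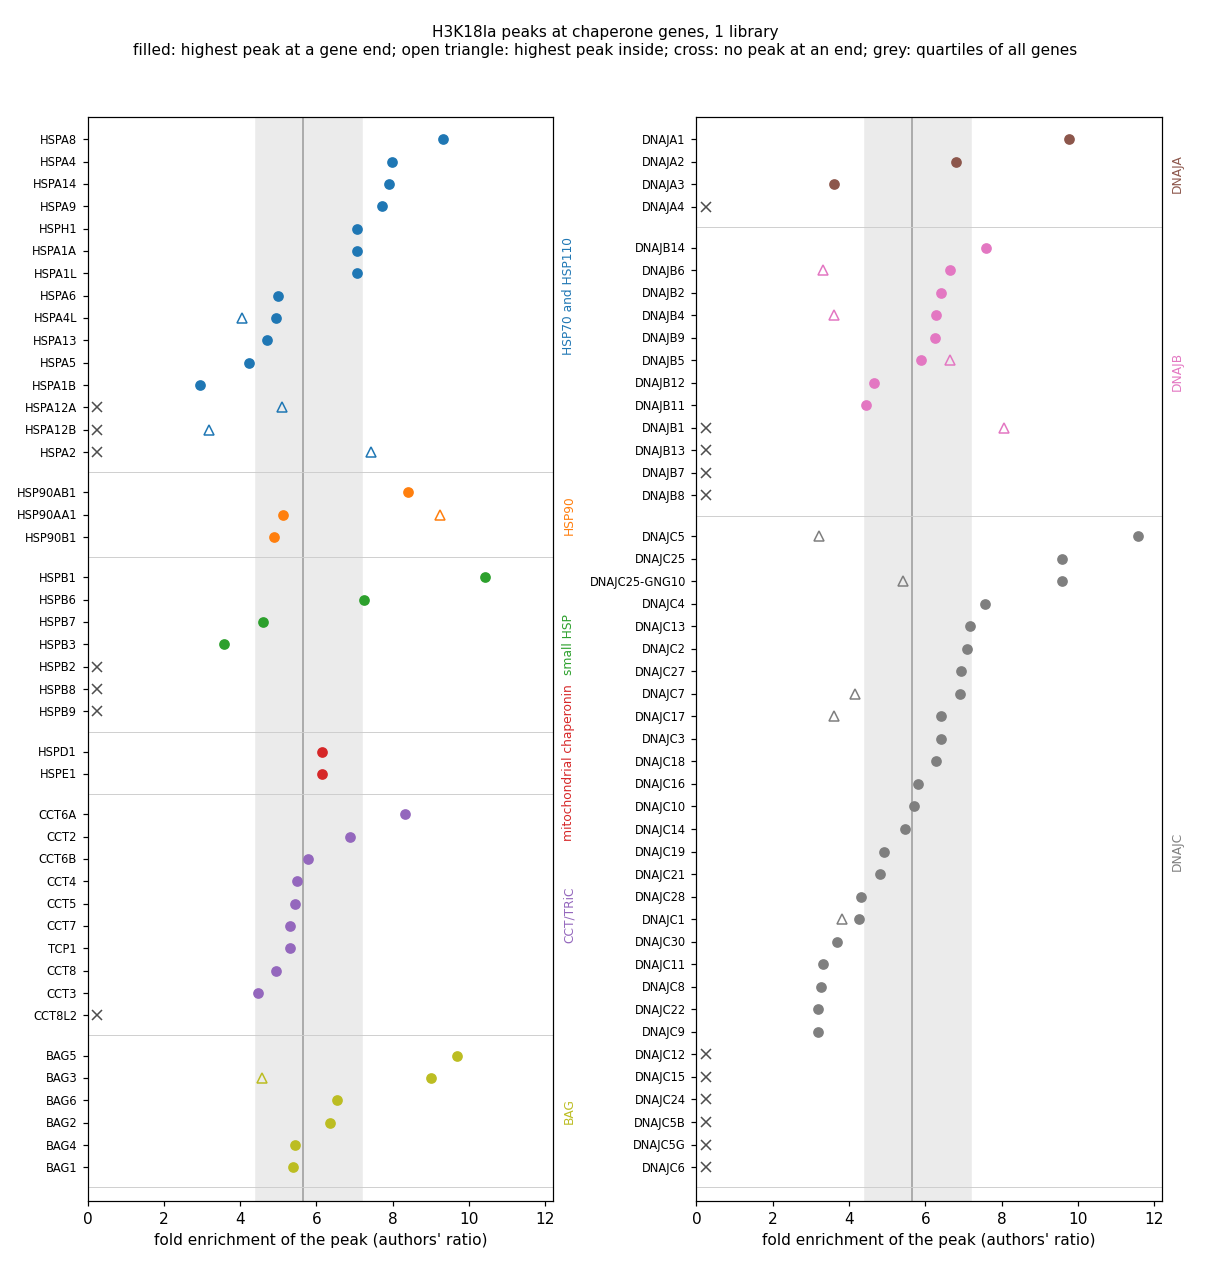
Fold enrichment (horizontal axis, the authors' ratio) of the H3K18la peaks of the 88 members, 1 row per gene, grouped by family. Filled points are the highest peak at a gene end, open triangles the highest peak inside the gene, and crosses the 18 genes with no end peak; the grey band and line give the quartiles 4.42 and 7.19 and the median 5.66 of all marked protein-coding genes. DNAJC5, at 11.6, lies farthest right, and HSPA1B, at 2.94, lies lowest among the marked genes.

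Genes that share a start region with a neighbour made up a larger part of the group. A protein-coding start on the opposite strand within 1000 bp upstream was present for 18 of 79 members (22.8%), against 12.3% of all genes with a known start. Of these 18, 17 had a start peak. Over all genes with a known start, 92.4% of those with such a neighbour and 57.9% of those without one had a start peak. Among members without one, 49 of 61 (80.3%) were marked. For 31 of the 70 marked members the highest end peak was shared with another protein-coding gene's end, against 32.9% of all marked genes, and a shared peak cannot be assigned to either gene. Base composition moved with the mark as well, at a median GC content of 64.8% for the 86 member starts with a peak and 58.0% for the 16 without, beside 66.3% and 54.3% for all starts. Its part in the share of marked members was not tested.

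**Figure D2:**
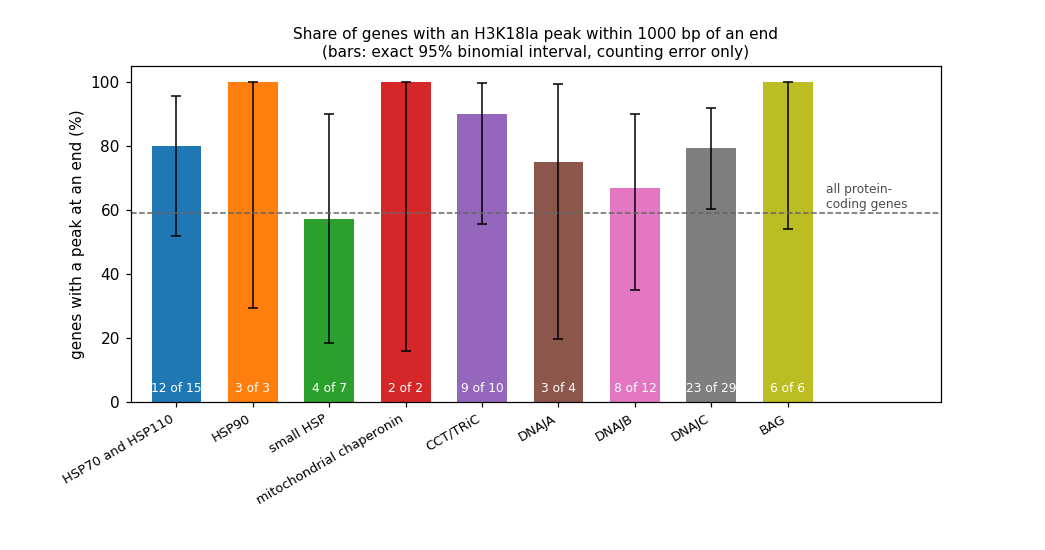
Share of genes with an H3K18la peak within 1000 bp of an end (vertical axis, percent) for each chaperone family, with counts in the bars and exact 95% binomial intervals, which cover counting error only. The dashed line is the 59.1% of all protein-coding genes. Of the 9 bars, 8 stand above it and the small heat shock genes, 4 of 7, stand just under it. Only the DNAJC interval, 60.3 to 92.0, lies wholly above the line, and the intervals of the other families include it.

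The HSP70 and HSP110 genes code for the central ATP-driven chaperones and their larger exchange-factor relatives. Every one of the 15 had a peak somewhere in the gene or its flanks, 12 had one at an end, and the 13 with a known start all had one there. Beside these counts stand 66.7% and 59.1% of all genes, and 62.1% of those with a known start. The median fold at an end was 7.05 over the 12. Constitutive HSPA8, which folds new proteins and strips clathrin from vesicles, led with 9.31-fold over 2482 bp. HSPA4, an HSP110-type exchange factor, had 7.98, HSPA14, a partner of the ribosome, 7.90 at an end shared with CDNF and MSANTD7, and HSPA9, the HSP70 of the mitochondrial matrix, 7.71. HSPH1, the heat-inducible HSP110, had 7.07-fold. HSPA6, HSPA4L and HSPA13, the last an HSP70 of the endoplasmic reticulum, had folds of 4.98, 4.94 and 4.71. HSPA6 is expressed almost solely under stress, and its peak was narrow at 395 bp around the start, from -272 to 122 bp. An end of FCGR2A lies within 1000 bp of that peak. When 50% of a window had to be covered, HSPA6 had no end peak.

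HSPA2, HSPA12A and HSPA12B had peaks inside the gene and none at an end. HSPA2, the HSP70 best known from sperm development, had a peak of 7.44-fold and another of 5.42-fold on either side of its annotated start, which lies inside the gene entry. HSPA12A, a distant relative found mainly in brain, had peaks of 5.09 and 3.64-fold at starts inside the entry and a further one of 3.47. HSPA12B, its relative of blood vessel cells, had a single internal peak of 3.18-fold over 311 bp and no start in the promoter table.

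The stress-inducible pair HSPA1A and HSPA1B, which make nearly the same protein, differed in the list. A peak of 7.05-fold over 2194 bp covered the shared start region of HSPA1A and of the testis gene HSPA1L, which is transcribed the other way from a start 260 bp off, and ended 298 bp inside HSPA1A. At HSPA1B the nearest peak was 2.94-fold over 845 bp and ended before the gene, at -496 bp from the start, and a further one of 2.68-fold lay beyond its finish. No listed peak covered the HSPA1B start. The control background of each peak was solved from its fold and p under the caller's Poisson model. It was 9.47 scaled reads at the 2.94-fold peak, 4.34 at the 2.68-fold one and 5.14 at the HSPA1A peak. The median over the peaks of their 5 Mb bin was 5.86. The part of the background in these folds was not tested. The upstream sequences of the pair are nearly equal, with 235 of 249 bases identical (94.4%), as the 150 bases before each start show. Capitals mark the only heat shock element match of 2 units in each.
HSPA1A (chr6:31815393-31815542, + strand): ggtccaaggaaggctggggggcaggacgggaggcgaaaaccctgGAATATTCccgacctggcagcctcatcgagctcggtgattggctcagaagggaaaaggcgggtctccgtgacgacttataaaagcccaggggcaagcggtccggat
HSPA1B (chr6:31827588-31827737, + strand): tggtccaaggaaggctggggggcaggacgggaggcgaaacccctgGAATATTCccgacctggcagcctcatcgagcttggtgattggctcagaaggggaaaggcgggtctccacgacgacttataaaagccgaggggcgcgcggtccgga

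How reads that fit both copies were placed is not given in the sources used here. The peaks and gaps at HSPA1A and HSPA1B are therefore uncertain, and a missing peak over HSPA1B cannot be read as a missing mark.

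The HSP90 genes were all marked. HSP90AB1, the constitutive cytosolic form, had 1 peak of 8.39-fold over 2409 bp that held its 3 annotated starts. HSP90AA1, the inducible cytosolic form, has a distal start, marked with 5.11-fold at a peak shared with WDR20, and an internal start, marked with 9.23-fold from -1143 to 972 bp. The heat shock element shown above belongs to the internal start. HSP90B1, the form of the endoplasmic reticulum, had peaks of 4.89 and 3.60-fold with its start in the gap of 658 bp between them.

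**Figure D3:**
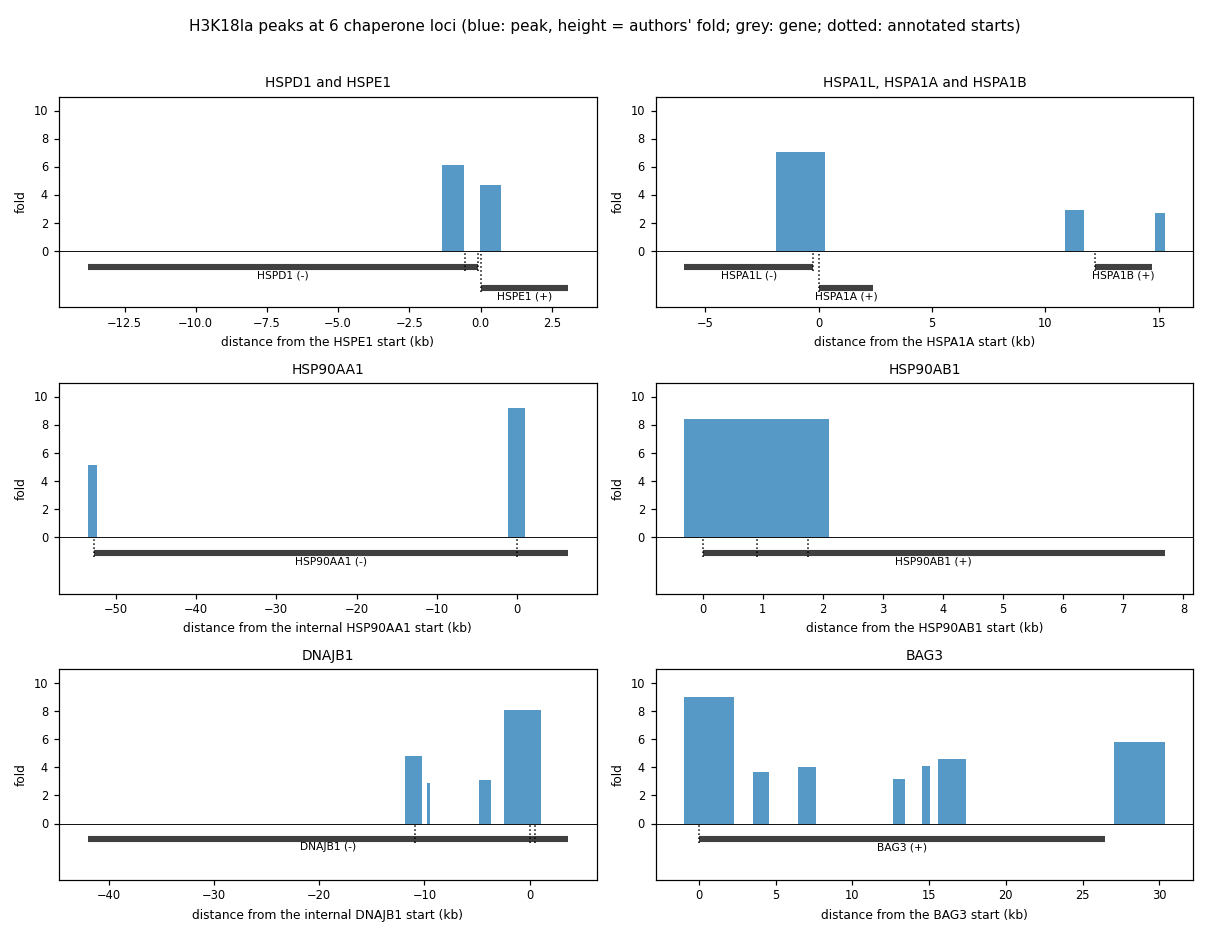
Peaks at 6 chaperone loci: the horizontal axis is the distance in kb from a start of the gene named (positive into the gene), blue boxes are peaks with the authors' fold as height, grey bars are genes with their strand, and dotted lines are annotated starts. The starts of HSPD1 and HSPA1B fall outside peaks, the higher HSP90AA1 and DNAJB1 peaks, at 9.23 and 8.06, lie at internal starts, and BAG3 has 7 peaks.

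The mitochondrial chaperonin HSPD1 and its lid HSPE1 are transcribed away from each other. A peak of 6.14-fold over 775 bp lay inside HSPD1 and one of 4.69-fold over 756 bp covered the HSPE1 start from -33 to 722 bp. Between them was a gap of 532 bp that held both annotated HSPD1 starts and the 4-unit heat shock element. The 104 bases between the outer HSPD1 start and the HSPE1 start lie in the gap over most of their length, and are shown on the + strand since they separate the pair.
HSPD1 to HSPE1 (chr2:197500275-197500378, + strand): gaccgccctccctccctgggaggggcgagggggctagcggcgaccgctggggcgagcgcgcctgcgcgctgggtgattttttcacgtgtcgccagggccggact

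A start between a pair of peaks was uncommon. It was the case for 7 of the 86 member starts with a peak within 1000 bp (8.14%), against 1.65% of 13068 such starts of all protein-coding genes, a comparison made after the values were seen. With only peaks of −log10 q of at least 5, an alternative added later, it was 4 of 81 (4.94%) against 0.934%. The 7 starts belong to HSPD1 (both starts), HSPA4L, HSP90B1, HSPH1, DNAJC3 and HSPA2, with gaps from 470 bp at DNAJC3 to 658 bp at HSP90B1. The other marked starts lay mostly inside a peak, 75 of 86 (87.2%) against 83.2%. The cover by peaks around the marked starts was highest just inside the gene, and stood at 94.2% of member starts and 90.2% of all starts 250 bp into it. It extended farther upstream in members, with 41.9% against 29.4% at -1000 bp, and less far into the gene, with 19.8% against 31.3% at 1000 bp. Divergent neighbours are more frequent among members, and their part in this cover was not tested.

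**Figure D4:**
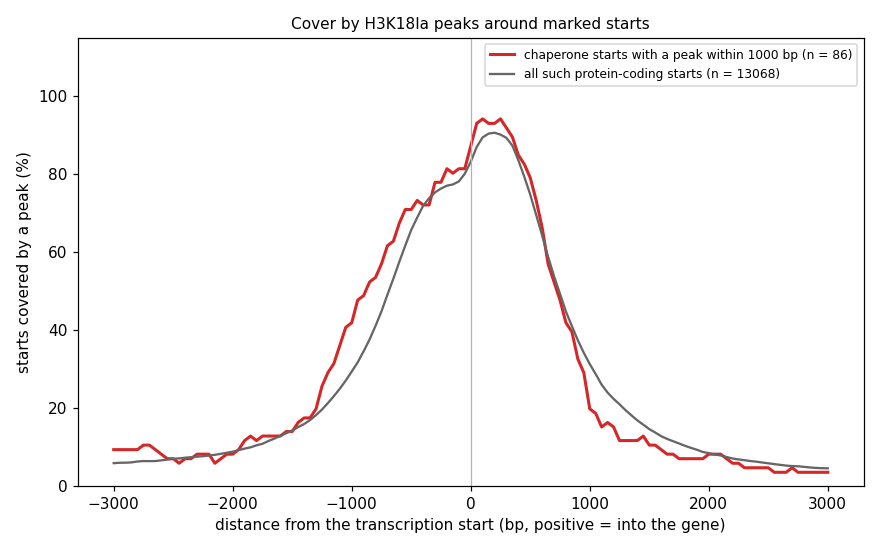
Percent of starts covered by an H3K18la peak (vertical axis) at each distance from the start (horizontal axis, bp, positive into the gene), for 86 member starts (red) and 13068 protein-coding starts (grey) with a peak within 1000 bp. The member line lies above the other at -1000 bp, 41.9% against 29.4%, and below it at 1000 bp, 19.8% against 31.3%.

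The cytosolic chaperonin, a ring of subunits that folds actin and tubulin, was marked at nearly every gene. An end peak was present for 9 of 10 genes, against 59.1% of all genes, at a median of 5.44-fold. CCT6A had the highest, 8.31-fold, but at the end shared with SUMF2; its other end had 7.34. CCT2 followed with 6.88. CCT6B, the testis form of that subunit, had 5.77 at a peak shared with the divergent ZNF830. CCT4, CCT5, CCT7, TCP1, CCT8 and CCT3 had folds of 5.50, 5.44, 5.32, 5.31, 4.93 and 4.48, and CCT8L2, a testis gene outside the ring, had no peak. For 7 of the 9 the peak was shared with another gene's end, against 32.9% of all marked genes. Examples are COMMD1 at CCT4 and MRPL18 at TCP1.

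J-domain proteins deliver clients to HSP70 and switch on its ATPase. Among the DNAJA genes, DNAJA1, the main cytosolic form, had 9.78-fold over 1444 bp at a start region shared with APTX. DNAJA2 had 6.81, mitochondrial DNAJA3 had 3.61, and DNAJA4 had no peak. Among the DNAJB genes, 8 of 12 (66.7%) had an end peak, near the 59.1% of all genes, at a median of 6.27. DNAJB14, an anchor of HSP70 at the endoplasmic reticulum membrane, had 7.58, DNAJB6, a suppressor of protein aggregates, 6.65 over 3688 bp, DNAJB2, a neuronal form, 6.41 and DNAJB4 6.29. The other marked genes were DNAJB9 with 6.26, DNAJB5 with 5.88, DNAJB12 with 4.65 and DNAJB11 with 4.46. DNAJB1, the chief stress-inducible partner of HSP70, had no end peak, and its 3 annotated starts lie inside the gene entry. A peak of 8.06-fold over 3483 bp covered the 2 starts nearest the finish, and one of 4.80 covered the other. DNAJB7, DNAJB8 and DNAJB13, genes known mainly from testis and sperm, had none.

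The DNAJC class holds J-domain proteins of varied tasks, and its folds had the widest range of the families, from 3.18 to 11.6. An end peak was present for 23 of 29, against 59.1% of all genes, at a median of 5.82. DNAJC5, the cysteine string protein of secretory vesicles, had the highest fold of all members, 11.6 over only 833 bp from -93 to 739 bp. DNAJC25 and the read-through gene DNAJC25-GNG10 share 1 start and its peak of 9.60-fold. DNAJC4 had 7.58, at its finish and shared with VEGFB, while its start had 4.35. The lowest were DNAJC11, of the mitochondrial membrane, with 3.33, the splicing-associated DNAJC8 with 3.28, DNAJC22 with 3.20, and DNAJC9, which chaperones histone H3 and H4, with 3.18. No peak was listed for DNAJC6, the neuronal auxilin, DNAJC12, DNAJC15, DNAJC24, or the testis genes DNAJC5B and DNAJC5G.

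The small heat shock proteins hold unfolded proteins without ATP. HSPB1, the widely expressed HSP27, carried a peak of 10.4-fold over 2861 bp, which ran from -1127 to 1733 bp and covered the whole gene of 1620 bp. HSPB6 had 7.25-fold at its start, shared with PROSER3. The control background solved from that peak's fold and p under the caller's Poisson model was 11.9 scaled reads, against a median of 3.83 for the list and 10.1 for the peaks of its 5 Mb bin. HSPB7 and HSPB3, muscle genes, had 4.60 and 3.58, both at the finish and not at the start. HSPB2, HSPB8 and HSPB9 had no peak. Of the 6 small heat shock genes with a known start, 2 were marked there, against 62.1% of all genes with a known start.

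BAG proteins typically bind the ATPase domain of HSP70 and steer the fate of its clients. All 6 BAG genes had an end peak, against 59.1% of all genes, at a median of 6.44-fold. For 4 of the 6 the peak was shared with another gene's end, against 32.9% of all marked genes. The neighbours were APOM at BAG6, LSM1 at BAG4, CHMP5 at BAG1 and COA8 at BAG5. BAG5 had 9.69 at a start region shared with COA8. BAG3, the stress-inducible member that guides clients to autophagy, had 9.0-fold over 3224 bp at its start, 5 peaks of 3.18 to 4.56 inside the gene and one of 5.79 beyond its finish. Its 7 peaks are the most of any member, and 1.38% of all genes had 7 or more. BAG6, which handles membrane proteins on their way to insertion, had 6.53, BAG2 6.35 over 2954 bp, BAG4 5.45 and BAG1 5.37. Taking the highest end peak of each gene, the 6 widest were those of DNAJB6, BAG3, HSPA5, BAG2, HSPB1 and DNAJB2 (2799 bp).

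Members were also grouped by role in hand-made lists. The heat-inducible list held HSPA1A, HSPA1B, HSPA6, HSPA8, HSPH1, HSP90AA1, HSPB1, HSPD1, HSPE1, DNAJA1, DNAJB1 and BAG3. It includes HSPA8, called constitutive above, and HSPD1 and HSPE1, which share their highest end peak. Of its 12 genes, 11 had a peak within 1000 bp of an end, against 59.1% of all genes, at a median end fold of 7.05. All 12 had one within 1000 bp of a start, against 62.1% of all genes with a known start. These starts include those of HSPA1B, HSPD1 and HSPH1, which no peak covers. The starts of HSPD1 and HSPH1 lie in gaps between peaks. Folds ranged from 2.94 at HSPA1B to 10.4 at HSPB1 in these cells, whose labels give no heat treatment. On the list for the endoplasmic reticulum, all 10 genes had an end peak, against 59.1% of all genes, at a median of 4.80. HSPA5, the main HSP70 there, had 4.22-fold averaged over 3208 bp from -2782 to 425 bp. HSPA5 and HSP90B1 are the members whose windows hold the endoplasmic reticulum stress element, CCAAT and CCACG with 9 bases between, which occurs at 1.96% of member starts and 0.104% of all. The start of HSPA5 lay inside its peak and that of HSP90B1 in a gap, and the bases before each show the element in capitals, in opposite orientation. HSP90B1 holds another from -194 to -176, outside the bases shown.
HSPA5 (chr9:125241344-125241493, - strand): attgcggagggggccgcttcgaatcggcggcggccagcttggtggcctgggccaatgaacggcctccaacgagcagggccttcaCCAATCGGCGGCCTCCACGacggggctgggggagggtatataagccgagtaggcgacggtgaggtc
HSP90B1 (chr12:103930260-103930409, + strand): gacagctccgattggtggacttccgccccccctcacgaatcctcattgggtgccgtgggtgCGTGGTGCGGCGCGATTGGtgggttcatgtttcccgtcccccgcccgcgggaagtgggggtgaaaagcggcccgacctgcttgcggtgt

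The end counts of this paragraph stand beside the 59.1% of all protein-coding genes. On a hand-made list of mitochondrial members, 6 of 7 had an end peak, at a median of 5.53-fold, the exception being DNAJC15. A hand-made list of 8 testis genes (HSPA1L, HSPB9, DNAJB8, DNAJB13, DNAJC5B, DNAJC5G, CCT6B and CCT8L2) had an end peak in 2 cases, HSPA1L and CCT6B, and both peaks were shared with a divergent neighbour. The list does not hold every member known from testis: DNAJB7, with no peak, and HSPA2, with peaks inside the gene, are outside it. On a hand-made muscle list, 3 of 4 had an end peak, with that of HSPB3 lying wholly beyond the gene. Of the 3 with a known start, 1 had a start peak, HSPB6, against 62.1% of all genes with a known start. The 14 members with no peak at all thus comprise 6 of the testis list, DNAJB7, 1 of the muscle list, HSPB8, DNAJA4, DNAJC6, DNAJC12, DNAJC15 and DNAJC24. Since the depth of the library is unknown, this means no peak in the list and not absence of the mark.

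Genes that work with these chaperones but bear other names were counted in the same way. Of 32 heat shock factors, cofactors and prefoldin subunits, 30 had an end peak (93.8%, exact 95% interval 79.2 to 99.2), beside 59.1% of all protein-coding genes. STIP1, which links HSP70 to HSP90, had 11.2-fold over 740 bp, and the HSP90-bound immunophilins FKBP5 and FKBP4 had 8.40 and 7.99. PTGES3, the p23 cochaperone, had 7.94. HSF1, the main heat shock factor, had 7.58 at a peak shared with BOP1, and HSF2 had 6.19. The muscle myosin chaperone UNC45B had no peak, and the prefoldin subunit VBP1 had one inside the gene only, of 8.06-fold. The median of the 25 marked factors and cofactors was 5.16 and that of the 5 marked prefoldin genes 4.96, both below the 5.66 of all marked genes.

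As a check on the labelled cell line, beside the 59.1% of all genes, 4 of 6 epithelial and 4 of 4 mesenchymal marker genes had an end peak, and 0 of 5 leukocyte markers did (exact 95% upper bound 52.2%), although 2 of the 5 had a peak in the gene or its flanks. Of 5 lung lineage genes, 3 were marked at an end. The epithelial and lung lineage shares lie near that of all genes and tell little about the identity of the cells. Of the epithelial genes, EPCAM had no peak, and CDH1 had only an internal one of 3.98-fold. The 4 marked at an end were keratins, with 7.58-fold at KRT19, 6.97 at KRT7 and 6.09 at both KRT8 and KRT18.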

How the data were processed

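The authors sequenced 1 anti-H3K18la and 1 control library of H1299 cells as paired ends, per the labels' protocols. The submitters' processing notes name bcl2fastq 2.17, cutadapt 1.18, Trimmomatic 0.38, Bowtie2 2.3.4.1, Picard, MACS2 (2.1.2 and 2.1.0), ChIPseeker and hg38, without order or settings. The deposited peak list has no header. Its deposited fold enrichment is a ratio to the caller's local background, its significance is deposited as −log10 p and −log10 q, and its deposited score follows −log10 q (10 times its value, cut to a whole number) in almost all peaks. Peak names start with NC, a prefix without explanation in the labels. Sequencing depth is unknown, and no replicate exists.

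Peaks were overlapped (1 bp or more) with windows reaching 1000 bp to each side of the 2 ends of 19866 placed RefSeq genes and, where the promoter table had an entry, of their starts. CCT6A, BAG4, DNAJC5B, HSPA14, DNAJC1, DNAJC24, HSPB2, DNAJC22 and HSPA12B had no entry. Where several peaks met a window, the one of highest fold was taken. The end windows follow RefSeq gene entries, so internal starts count as body. Shares carry exact (Clopper-Pearson) 95% intervals. Exons and untranslated regions were not assigned. Calculations used Python 3.11.15, pandas 2.3.3 and scipy 1.17.1, and the overlap code was tested on simulated data.

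Members and gene lists were chosen with earlier results of these data known. Genes were named by rule: all members without an end peak, the 12 highest folds and 6 widest peaks, all genes outside the DNAJ classes, the 4 highest and 4 lowest of each DNAJ class, and of the other lists the 4 highest and those without a peak. HSF1, HSF2, DNAJB9, DNAJC3 and the genes named as neighbours were added after their values were seen, as were the limit of 8-fold and the count of starts between peaks. Alternatives were other windows, stricter peaks, midpoint or 50% cover, and isolated genes.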

Additional observations from a re-analysis of the deposited data

How the results depend on the processing

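The share of members with an end peak fell from 79.5% to 67.0% (59 of 88) when only peaks above the median fold counted, beside 45.0% of all genes, and to 59.1% (52 of 88) when 50% of a window had to be covered, beside 41.0%. The share with a start peak was 72.2% with peaks above the median fold, beside 47.2%. Other windows, the midpoint rule and a minimum −log10 q of 5 gave end shares that moved by less than the counting interval. No share fell below that of all genes under the same setting. A window of 3000 bp gave other peaks for CCT8 (10.5-fold), DNAJB14 (9.36), DNAJB5 and DNAJC8. Requiring −log10 q of 5 lost DNAJA3, DNAJC22, DNAJC8, DNAJC9 and HSPB3. Starts between peaks numbered 5 of 86 and 8 of 88 with windows of 500 bp and 3000 bp, beside 1.11% and 2.29% of all marked starts, settings chosen after seeing the data. No paired analysis was possible because each group has 1 library. Depth is unknown, so weak peaks near the caller's threshold may be missing from the list.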

Other observations

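RefSeq placed 87 pseudogenes of members, and whether each is a processed or a duplicated copy was not examined. A peak lay at an end of 5 of them (5.75%), against 4.14% of 16655 placed pseudogenes. The highest was 6.62-fold at CCT6P1, followed by 4.89 at HSP90AB3P, 4.57 at CCT6P3, 4.42 at HSPB1P2, where the end of the protein-coding CCDC22 shares the peak, and 3.63 at DNAJB6P3. How reads shared with the parent genes were placed was not examined.

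Other promoter motifs occurred at member starts as follows. CCAAT lay at 36.3% of member starts and 34.7% of all starts, TATAAA at 11.8% and 9.47%, and GGGCGG, the core of the binding site of SP1, at 69.6% and 56.3%, each counted on both strands.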
